A study of Drosophila melanogaster with 24 samples.

Results

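Antennae of adult Drosophila melanogaster heterozygous for the rotund allele rn[tot] were compared with wild type antennae by RNA sequencing. The comparison used 4 of the 24 polyA RNA libraries of the series, 2 per genotype, and every gene with enough counts to be tested, with no choice of genes by their values. The wild type was w[1118];;+/+ and the heterozygote w[1118];;rn[tot]/TM6, so both carry w[1118]. A further 2 adult libraries, w[1118];;rn[tot]/rn[tot], are called the rn mutant and are given as levels only, because any comparison of them with wild type would reuse the same wild type libraries. TM6 is a balancer, a version of chromosome 3 with multiple inversions and marker mutations that keeps an allele in stock. The rn[tot] chromosome, TM6 and any difference between the stocks came together in the heterozygote, so their parts in a difference cannot be told apart. The labels used here give neither age nor sex, and do not say whether the libraries of a group are separate animals, and p-values may then measure technical spread only. The other libraries came from the larval disc and from antennae 8 h and 40 h after pupation. The comparison asks which adult transcripts separate the pair of control genotypes in a series about rn.

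The antenna is the main olfactory organ of the fly. Its olfactory neurons sit in basiconic, trichoid, intermediate and coeloconic sensilla, most of them expressing a single odorant receptor (Or) with the coreceptor Orco or an ionotropic receptor (Ir) with a coreceptor such as Ir25a, and support cells around them secrete odorant-binding proteins and enzymes that break down odorants. rotund encodes a zinc-finger transcription factor that acts in the developing antennal disc, where it helps to divide sensillum precursors into subtypes with different receptors.

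Levels are CPM, counts per 1e6 counts of a library after scaling by the trimmed mean of M-values, given for library 1 and then library 2 of each genotype (n = 2). Log2 changes are heterozygote over wild type ± SE, and each adjusted p comes from edgeR's quasi-likelihood test with Benjamini-Hochberg adjustment over all genes tested, two-sided, with a threshold of 0.05. A gene is said to rise or fall where it passed. Gene counts were 13116330 and 12095707 in wild type and 14792515 and 15123603 in the heterozygote, and the log CPM of the 2 libraries of a genotype correlated across genes at 0.989 in wild type and 0.990 in the heterozygote. Coordinates are those of the BDGP6 annotation. rn itself (FBgn0267337, 3R 7272617 to 7309629) was low in the adult, at 2.55 and 2.95 CPM in wild type, 2.29 and 1.77 in the heterozygote and 1.23 and 1.73 in the rn mutant. Both heterozygote libraries were the lower, with a log2 change of -0.44 ± 0.34 that did not pass (adjusted p = 0.977). Library 1 of the rn mutant stood apart in markers of other tissues, and its values are given with those markers.

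Of 10993 genes tested, 200 differed between heterozygote and wild type, which is 1.82%. Of these, 134 were higher in the heterozygote (1.22% of all genes tested) and 66 lower (0.6%). Before adjustment, 979 of the 10993 had p under 0.05 in the same test. Changes were often large: 64 genes rose and 30 fell by more than 4-fold, the median size of a change was 1.91 on the log2 scale, and the median over all genes was -0.0016. In all 200 the heterozygote libraries lay outside the wild type range, as they did in 50.9% of all genes tested. The test pooled the spread over 24 libraries, with a coefficient of variation of 22.8%. The 4 adult libraries alone had 10.8%, and a fit on them, with 2 residual degrees of freedom, called 1149 of 10022 genes (11.5%), the 200 among them. DESeq2 called 375 of 10779 (3.48%). Leaving out 1 library lowered the 200 to 88 without heterozygote library 1, 97 without heterozygote library 2, 73 without wild type library 1 and 76 without wild type library 2, and 49 of the 200 passed in each of these.

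**Figure D1:**
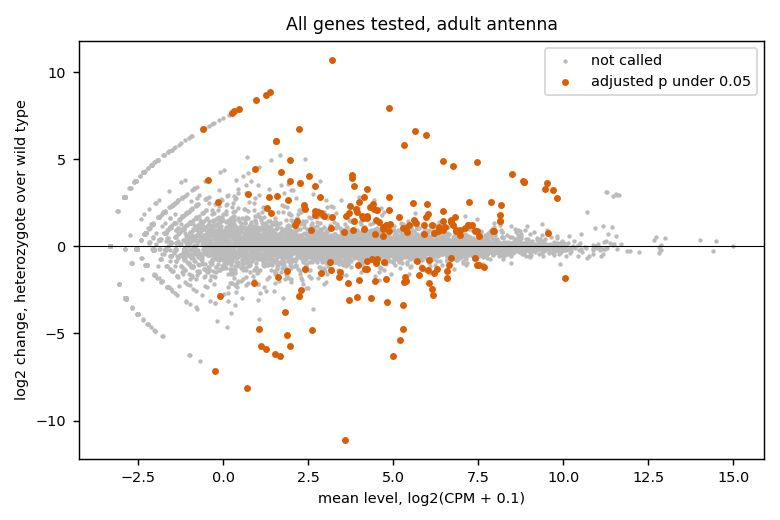
Each point is a gene tested in the adult antenna. The horizontal axis is the mean level of wild type and heterozygote as log2(CPM + 0.1), and the vertical axis is the fitted log2 change of heterozygote over wild type. The 200 orange genes passed at an adjusted p under 0.05, with 134 above 0 and 66 below; they reach from -11.09 to 10.71, and both of these extremes rest on a group with no counts.

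The largest rises were in genes that were low in wild type antennae. They include a cuticle protein gene, a serpin, an odorant receptor that wild type antennae hardly express and several genes known only by CG numbers. Cpr62Ba, which encodes a cuticle protein of the Rebers-Riddiford family (FBgn0035279, 3L 1824129 to 1831783), had no counts in wild type, 18.1 and 18.2 CPM in the heterozygote and 6.44 and 4.17 CPM in the rn mutant. Taking 3 counts over both wild type libraries as the floor, it was at least 161-fold higher (adjusted p = 0.000511). Low counts were mostly even, as if mates were counted separately, so this floor, here and below, is too low for a strict bound. CG43149 (FBgn0262679, 3L 53873 to 54751) stood at 0.145 and 0.311 CPM in wild type, 64.9 and 52.2 in the heterozygote and 195 and 150 in the rn mutant. Its log2 change was 7.95 ± 0.62 (adjusted p = 2.03e-06), and its highest levels were in the mutant. CG31205 (FBgn0051205, 3R 20731631 to 20732707) gave 1.75 and 1.16 CPM in wild type, 143 and 102 in the heterozygote and 360 and 349 in the rn mutant, with a log2 change of 6.38 ± 0.54 (adjusted p = 3.74e-06). Here as well the 3 genotypes did not overlap and the mutant was highest.

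Spn47C, which encodes a serpin, a type of serine protease inhibitor (FBgn0033574, 2R 10938425 to 10941738), stood at 9.09 and 7.69 CPM in wild type, 213 and 200 in the heterozygote and 175 and 184 in the rn mutant. It rose by 4.62 ± 0.38 on the log2 scale (adjusted p = 3.39e-06). The neighbours CG6912 and CG3984 on 3R moved together. CG6912 had 1.89 and 0.854 CPM in wild type against 75.7 and 80.9 in the heterozygote (log2 change 5.81 ± 0.34, adjusted p = 8.34e-08). CG3984 had 1.53 and 0.466 CPM against 103 and 95.1 (6.61 ± 0.58, adjusted p = 4.38e-06). The rn mutant libraries, which lay near those of the heterozygote, were at 77.7 and 76.9 CPM for CG6912 and at 105 and 96.8 CPM for CG3984. CG7900 rose from 14.8 and 9.01 to 376 and 299 CPM (4.82 ± 0.32, adjusted p = 4.15e-07). CG11893 rose from 6.69 and 4.50 to 112 and 229 CPM (4.92 ± 0.39, adjusted p = 2.18e-06), with heterozygote library 2 the higher of the pair. These 8 genes passed with any 1 of the 4 libraries left out.

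The other 4 of the 12 largest rises had under 10 CPM in all 4 libraries, and their calls depended on single libraries. CG8850 had 0 and 0.155 CPM in wild type against 8.96 and 9.33 in the heterozygote, a ratio of 122 with a 95% counting interval of 33.4 to 1012 (adjusted p = 0.00636). It did not pass without wild type library 1 (adjusted p = 0.135) or library 2 (adjusted p = 0.0608). CG12158 had a ratio of 73.9 (20.2 to 615; adjusted p = 0.0131) and passed with 1 library left out only where that was heterozygote library 2 (0.0493); the other values were 0.0988 without heterozygote library 1, 0.0975 without wild type library 1 and 0.182 without wild type library 2. CG13558 had a ratio of 75.7 (20.6 to 630; adjusted p = 0.0372) and was lost without any 1 of the 4 libraries, with adjusted p from 0.175 to 0.297; the sum over transcripts and DESeq2 did not call it either. The remaining gene is the odorant receptor Or33b, described with the receptors.

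**Figure D2:**
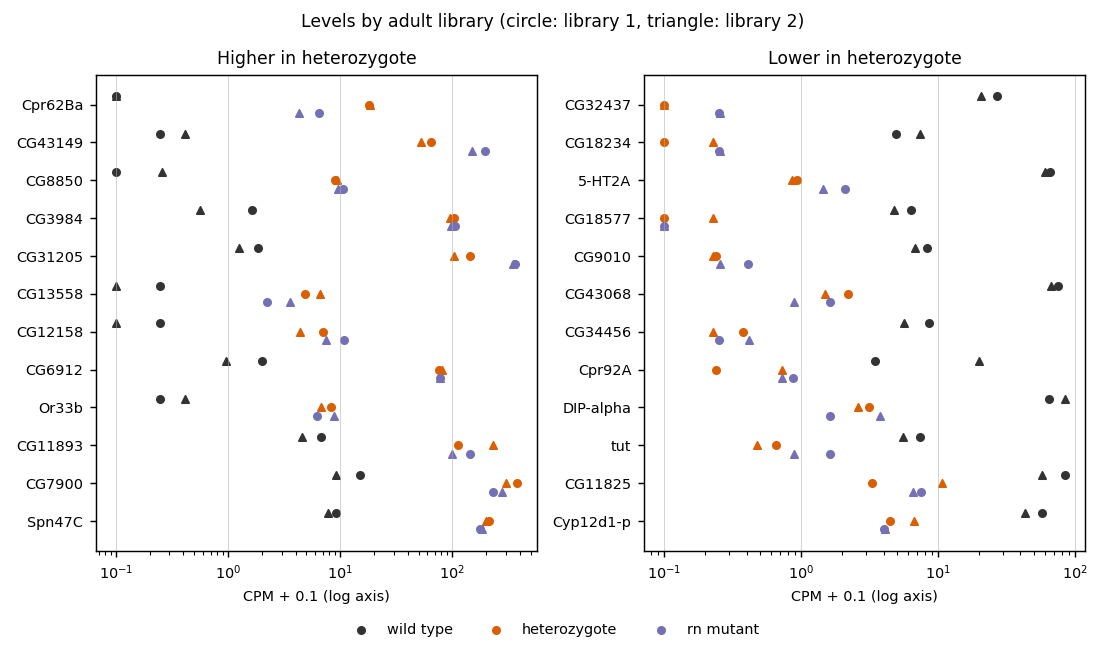
Levels of the 12 genes with the largest rises (left) and the 12 with the largest falls (right), as CPM + 0.1 on a log axis, with 1 point per adult library. In every gene shown both heterozygote points lie outside the wild type range; points at 0.1 are libraries with no counts.

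The largest falls included genes for a serotonin receptor, a neuronal recognition protein and a mitochondrial cytochrome P450. 5-HT2A, a G protein-coupled serotonin receptor (FBgn0087012, 3R 4612870 to 4633304), stood at 65.4 and 60.5 CPM in wild type, 0.833 and 0.757 in the heterozygote and 1.99 and 1.34 in the rn mutant. Its log2 change was -6.29 ± 0.67 (adjusted p = 6.44e-05), so nearly all of its wild type level was missing in both other genotypes. DIP-alpha, an immunoglobulin-domain protein that pairs neurons by binding Dpr6 and Dpr10 (FBgn0052791, X 3507245 to 3571649), had 64.1 and 84.5 CPM in wild type, 3.06 and 2.52 in the heterozygote and 1.53 and 3.70 in the rn mutant. It fell by 4.73 ± 0.44 on the log2 scale (adjusted p = 8.91e-06). It was the only member of the dpr and DIP list to pass among 33 tested (3.03%, against 1.82% of all genes), and the list's median log2 change was -0.01; the list was matched by symbol, and DIP1 and DIP2 share only the name. Its partner gene dpr10 was at 27.5 and 25.5 CPM in wild type and 22.7 and 24.3 in the heterozygote, which did not pass (adjusted p = 1).

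CG32437 (FBgn0052437, 3L 21357683 to 21359867) stood at 26.8 and 20.3 CPM in wild type, had no counts in the heterozygote and 0.153 and 0.157 CPM in the rn mutant. With 3 counts over both heterozygote libraries as the floor it was at least 239-fold lower (adjusted p = 0.000201). CG43068 had 74.9 and 67.1 CPM in wild type against 2.08 and 1.39 in the heterozygote (-5.35 ± 0.59, adjusted p = 0.000239). CG34456, which lies beside the small heat shock genes, had 8.44 and 5.59 CPM against 0.278 and 0.126 (-5.07 ± 0.59, adjusted p = 0.000123). These 3, 5-HT2A and DIP-alpha passed with any 1 library left out. Cyp12d1-p, a mitochondrial P450 of the kind that metabolises insecticides, had 57.7 and 43.2 CPM against 4.37 and 6.62 (-3.19 ± 0.50, adjusted p = 0.00179). Its near-identical neighbour Cyp12d1-d had 30.9 and 22.4 CPM against 3.12 and 3.91 (-2.92 ± 0.64, adjusted p = 0.0223), and reads cannot be assigned surely between the copies. The call of Cyp12d1-p was lost without heterozygote library 1 (adjusted p = 0.0633), and that of Cyp12d1-d without any 1 library (from 0.104 to 0.288).

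The remaining falls were less firm. Cpr92A, a further cuticle protein gene, had 3.35 and 19.7 CPM in wild type against 0.139 and 0.631 in the heterozygote (-4.83 ± 0.77, adjusted p = 0.00233), and its wild type libraries differed widely; the call was lost without heterozygote library 1 (adjusted p = 0.0583). CG11825 had 84.1 and 57.8 CPM against 3.19 and 10.5 (-3.36 ± 0.59, adjusted p = 0.00688), and did not pass without heterozygote library 1 (0.111) or wild type library 1 (0.115). Another 4 genes were lost with any 1 library left out. They were CG18234, with a ratio of 90.9 (counting interval 24.8 to 757; adjusted p = 0.031, from 0.162 to 0.269 with a library left out), and CG18577, with a ratio of 82.9 (22.6 to 691; adjusted p = 0.0118, from 0.0649 to 0.148). CG9010 had a log2 change of -5.70 (adjusted p = 0.0205, from 0.108 to 0.312) and tut, which encodes an RNA-binding protein known from the germ line, one of -3.74 (adjusted p = 0.044, from 0.135 to 0.425). The sum over transcripts called neither CG18234 nor tut, and DESeq2 and the fit without a filter did not call CG18234.

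Few of the receptors that define the olfactory neurons passed in the fit on all 24 libraries. Of 55 listed antennal receptors 54 were tested, and 1 passed, Or33b, which is 1.85% against 1.82% of all genes; 3 passed before adjustment, and DESeq2 called 2, Or33b and Or65a, the latter lower. The median log2 change was -0.09, and 43 of the 54 were within 0.5 of 0. By sensillum class, the median was -0.08 for 10 receptors of the large basiconic sensilla, 0.08 for 15 of the small basiconic sensilla, -0.13 for 13 of the trichoid and intermediate sensilla, -0.23 for 10 of the coeloconic sensilla and -0.00 for 6 of the arista and sacculus. In the fit on the 4 adult libraries alone, 14 of the 54 passed, 6 higher and 8 lower. That is a larger share than the 11.5% of all genes called in that fit. In bulk RNA, fewer cells of a type and less RNA per cell cannot be told apart.

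Or33b, an odorant receptor listed here with those of the large basiconic sensilla (FBgn0026391, 2L 11936181 to 11937501), was at 0.145 and 0.311 CPM in wild type, 8.19 and 6.68 in the heterozygote and 6.13 and 8.66 in the rn mutant. Wild type libraries had 6 counts together, and the log2 change was 4.97 ± 0.76 (adjusted p = 0.00758). With 1 library left out it passed only without heterozygote library 2 (adjusted p = 0.045), and gave 0.0624 without heterozygote library 1, 0.157 without wild type library 1 and 0.0969 without wild type library 2. The lowest receptor was Or65a, of trichoid neurons, at 47.7 and 55.1 CPM in wild type and 20.3 and 23.1 in the heterozygote. The log2 change of -1.24 ± 0.48 did not pass (adjusted p = 0.373), but DESeq2 (0.0245) and the fit on the adult libraries alone (0.000303) called it, and Or65a shares sequence with Or65b and Or65c. Or98a, of small basiconic neurons, was the highest receptor after Or33b, at 27.6 and 41.1 against 68.5 and 59.5 CPM (0.90 ± 0.41, adjusted p = 0.569). Or67d, the receptor for the pheromone cis-vaccenyl acetate, was at 52.8 and 51.4 CPM in wild type and 44.2 and 51.0 in the heterozygote, with a log2 change of -0.13 ± 0.31 (adjusted p = 1). In the rn mutant Or98a was at 0.307 and 0.315 CPM and Or67d at 0.153 and 0.157 CPM. The 4 control libraries were thus all far above the mutant ones for both receptors.

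No coreceptor passed. Orco, the coreceptor of all odorant receptors, stood at 2473 and 2428 CPM in wild type and 2254 and 2076 in the heterozygote (-0.18 ± 0.24, adjusted p = 1). Snmp1, a membrane protein needed for pheromone responses, had 1662 and 1647 CPM against 1111 and 1140 (-0.56 ± 0.35, adjusted p = 0.843). Ir8a, Ir25a and Ir76b, the ionotropic coreceptors, had log2 changes of -0.37, -0.43 and -0.47. All 5 log2 changes were negative, with a median of -0.43. The groups did not overlap in any of the 5, as in 50.9% of all genes. None passed, with or without adjustment or by DESeq2. The fit on the adult libraries alone called 4 of the 5 lower, against 11.5% of all genes called in either direction. The transcription factors of olfactory neuron fate had 13 of 15 members tested and none called (median -0.11; 1 before adjustment, 0 by DESeq2). Among them acj6, a POU-domain factor for receptor choice, was at 68.4 and 65.3 CPM in wild type and 59.3 and 59.5 in the heterozygote, and pdm3, another POU factor, at 123 and 124 against 118 and 124. None of 15 neuronal and synaptic genes (median -0.09), 11 glial genes (0.02) or 22 tested proximodistal and antennal patterning factors (0.01) passed; 0, 2 and 1 did before adjustment, and DESeq2 called 1, a glial gene. Receptors of the maxillary palp, an organ beside the antenna, were low, with summed levels of 23.6 and 20.1 CPM in wild type and 21.4 and 19.7 in the heterozygote. None of 4 tested passed (2 before adjustment, 0 by DESeq2). Their median log2 change was -1.02, with 2 positive and 2 negative, and the fit on the adult libraries alone called 2 lower. The large basiconic receptors summed to 945 and 847 CPM and to 861 and 888 CPM.

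**Figure D3:**
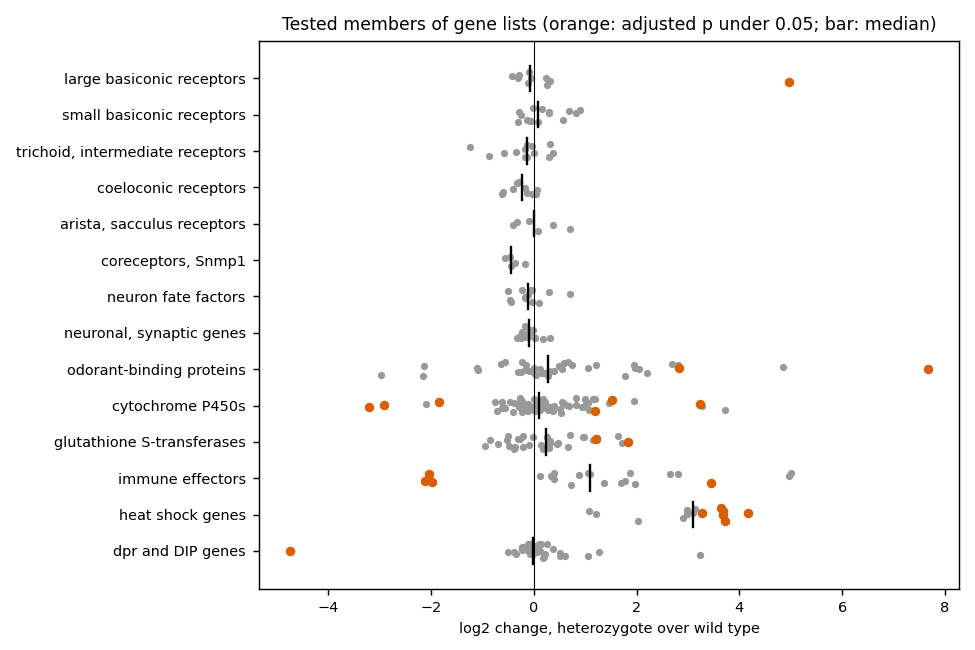
Log2 changes of heterozygote over wild type for every tested member of 14 gene lists. Each point is a gene, orange where it passed at an adjusted p under 0.05, and the black bar is the median of the list. Receptor lists cluster around 0 with Or33b alone at 4.97, and the heat shock genes all lie above 0 with a median of 3.09.

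Of the odorant-binding proteins, which fill the sensillum lymph, a pair of low-level members rose. Of 51 odorant-binding protein genes 40 were tested, and 2 rose and none fell (5%, against 1.82% of all genes). Their median log2 change was 0.29, with 26 positive and 13 negative. The fit on the adult libraries alone, which called 11.5% of all genes, called 12 of the 40 higher and 2 lower. Obp99c (FBgn0039682) stood at 5.02 and 3.57 CPM in wild type, 27.6 and 33.6 in the heterozygote and 46.0 and 39.7 in the rn mutant. It rose by 2.83 ± 0.41 (adjusted p = 0.000951) and passed with any 1 library left out. Obp83ef had no counts in wild type and 2.22 and 2.14 CPM in the heterozygote, at least 19.4-fold higher over a floor of 3 counts (adjusted p = 0.00293; 0.0517 without wild type library 1). Obp56d was far more abundant, at 732 and 634 CPM in wild type and 2712 and 2552 in the heterozygote, and its groups were widely apart, but the log2 change of 1.95 ± 0.52 did not pass (adjusted p = 0.0712; 1.51e-05 in the fit on the adult libraries alone). lush, which binds cis-vaccenyl acetate, was at 989 and 867 CPM against 1488 and 1302 (0.59 ± 0.28, adjusted p = 0.567).

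Among 10 odorant-degrading and support-cell enzymes none rose and 2 fell (20%, against 1.82% of all genes). The fit on the adult libraries alone, which called 11.5% of all genes, called 4 of the 10 higher and 2 lower. Cyp6a20, a P450 of antennal support cells linked to social modulation of aggression (FBgn0033980, 2R 14882118 to 14884046), stood at 1696 and 1624 CPM in wild type, 451 and 480 in the heterozygote and 519 and 426 in the rn mutant. Its log2 change was -1.83 ± 0.20 (adjusted p = 7.05e-05), and it passed with any 1 library left out. Jheh3, a juvenile hormone epoxide hydrolase, had 144 and 124 CPM against 69.6 and 58.3 (-1.07 ± 0.22, adjusted p = 0.0131), and was lost without any 1 of the 4 libraries (from 0.0659 to 0.233). The list's median was -0.03.

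Genes of detoxification moved in both directions. Of 74 P450 genes tested among 81, 3 rose and 3 fell (8.11%, against 1.82% of all genes; median 0.11); of 34 glutathione S-transferase genes among 35, 2 rose and none fell (5.88%, against the same 1.82%; median 0.23); and of 23 UDP-glycosyltransferase genes among 31, none passed (median 0.10; 7 before adjustment, 2 by DESeq2). The fit on the adult libraries alone, which called 11.5% of all genes, called 15 P450s higher and 8 lower. It called 7 glutathione S-transferases higher and 5 lower, and 7 UDP-glycosyltransferases higher and 4 lower. Cyp6a2, a P450 known from DDT-resistant strains (FBgn0000473, 2R 6779749 to 6781491), stood at 138 and 181 CPM in wild type, 1680 and 1344 in the heterozygote and 816 and 787 in the rn mutant. Its rise of 3.24 ± 0.37 (adjusted p = 0.000105) held with any 1 library left out. Cyp6a23, near Cyp6a20 on 2R and changing in the opposite direction, had 24.8 and 25.2 CPM in wild type and 73.7 and 69.4 in the heterozygote (1.52 ± 0.29, adjusted p = 0.00871). Cyp4e3 had 91.3 and 101 CPM against 249 and 192 (1.20 ± 0.29, adjusted p = 0.0412). Both were lost without any 1 library, from 0.051 to 0.127 for Cyp6a23 and from 0.112 to 0.417 for Cyp4e3, which also did not pass with the sum over transcripts. With Cyp6a20 and the Cyp12d1 copies as the falls, these are all 6 P450s called. GstD3 rose from 32.4 and 23.8 to 83.6 and 118 CPM (1.84 ± 0.30, adjusted p = 0.00277; 0.0782 without wild type library 2). GstD9, beside it on 3R, rose from 38.0 and 34.7 to 70.2 and 98.4 CPM (1.21 ± 0.24, adjusted p = 0.0118), and passed only without heterozygote library 1 (0.0213), with 0.215, 0.113 and 0.167 without heterozygote library 2, wild type library 1 and wild type library 2.

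Among immune effectors, calls were made in both directions. Of 23 listed antimicrobial peptide and effector genes 21 were tested; 1 rose and 3 fell (19%, against 1.82% of all genes), and 18 of the 21 log2 changes were positive, with a median of 1.09. The fit on the adult libraries alone (11.5% of all genes) called 6 higher and 3 lower, and DESeq2 (3.48% of all genes) 3 higher and 3 lower. The falls were all Bomanins, short secreted peptides of the Toll response. BomS1 stood at 85.2 and 129 CPM in wild type, 10.7 and 39.0 in the heterozygote and 29.3 and 17.6 in the rn mutant, a log2 change of -2.10 ± 0.49 (adjusted p = 0.0431). BomS2 had 49.4 and 83.4 CPM against 12.6 and 21.1 (-1.98 ± 0.42, adjusted p = 0.0382), and BomBc1 had 57.3 and 70.2 against 9.03 and 21.9 (-2.04 ± 0.50, adjusted p = 0.0468). Another Bomanin gene, BomS4, outside the list and named after its values were seen, had 30.8 and 41.2 CPM against 3.75 and 5.55 (-2.95 ± 0.55, adjusted p = 0.0179). These 4 genes lie within 2R 18382704 to 18387030. BomS2, BomBc1 and BomS4 were lost without any 1 library (from 0.0931 to 0.443, 0.0696 to 0.535 and 0.113 to 0.248), and BomS1 passed only without heterozygote library 2 (0.00825), with 0.317, 0.119 and 0.405 without heterozygote library 1, wild type library 1 and wild type library 2. With the sum over transcripts BomS1, BomS2 and BomBc1 did not pass.

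The only immune effector of the list that rose was AttA, an attacin, which is an antibacterial peptide. It had 0.582 and 4.27 CPM in wild type and 13.3 and 39.3 in the heterozygote, a log2 change of 3.44 ± 0.81 (adjusted p = 0.0372). Its call was lost without heterozygote library 1 (0.051), heterozygote library 2 (0.515) or wild type library 1 (0.398), and with the sum over transcripts. AttB, a near-identical neighbour that shares reads with it, had 1.09 and 4.97 against 9.93 and 28.1 CPM (2.65 ± 0.74, adjusted p = 0.0992). AttC was at 0.291 and 0 against 4.72 and 5.17 CPM, and Dro, which encodes drosocin, at 0.218 and 0.388 against 10.3 and 9.71, and neither passed (adjusted p = 0.068 and 0.0565). In all 4 the higher pair was the heterozygote. Of 8 Turandot stress genes 2 were tested and none passed, also before adjustment or by DESeq2.

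All tested heat shock genes had positive log2 changes, and libraries of a genotype differed widely in them. Of 16 listed genes 15 were tested, all 15 log2 changes were positive with a median of 3.09, and 6 rose (40%, against 1.82% of all genes). DESeq2 called 12, against 3.48% of all genes, and the fit on the adult libraries alone 14, against 11.5%. In 14 of the 15 the groups did not overlap, as in 50.9% of all genes. Their summed level was 2485 and 8552 CPM in wild type, 55115 and 22364 in the heterozygote and 73708 and 12137 in the rn mutant. Library 1 was the lower in wild type and the higher in both other genotypes. Hsp23, a small chaperone, stood at 17.7 and 57.4 CPM in wild type, 1103 and 250 in the heterozygote and 1468 and 348 in the rn mutant. It rose by 4.17 ± 0.71 (adjusted p = 0.00353). Hsp22, the small chaperone of mitochondria, had 29.6 and 104 CPM against 1330 and 379 (3.68 ± 0.67, adjusted p = 0.00636), a value it shares with CG4456, an overlapping gene whose reads cannot be told from it. Hsp26 had 45.3 and 170 CPM against 2162 and 534 (3.65 ± 0.73, adjusted p = 0.0127). Hsp27 had a log2 change of 3.72 (adjusted p = 0.0269), and Hsp68, a member of the Hsp70 family, had 50.9 and 214 CPM against 1762 and 788 (3.27 ± 0.72, adjusted p = 0.0239).

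None of these 6 calls held without heterozygote library 1, where the adjusted p was 0.0556 for Hsp23, 0.107 for Hsp22 and CG4456, 0.227 for Hsp26 and Hsp68 and 0.496 for Hsp27. None held without wild type library 1 either, with 0.0886 for Hsp23, 0.12 for Hsp22, 0.119 for CG4456, 0.202 for Hsp26, 0.375 for Hsp27 and 0.304 for Hsp68. Hsp27 was also lost without wild type library 2 (0.0967), and Hsp26, Hsp27 and Hsp68 in the fit on the adult libraries of all 3 genotypes. With a replicate block in the edgeR fit, Hsp22, CG4456 and Hsp26 did not pass (adjusted p = 0.0531, 0.0523 and 0.108), while Hsp23 did (0.0409). The Hsp70 genes are near-identical copies whose reads cannot be assigned surely. Hsp70Bb was at 261 and 1170 CPM in wild type and at 7943 and 3283 in the heterozygote, with a log2 change of 2.97 ± 0.87 that did not pass (adjusted p = 0.122). Hsp83, the cytosolic Hsp90, was at 907 and 1614 against 3787 and 1523 CPM, so its groups overlapped (1.07 ± 0.47, adjusted p = 0.466). The same list had a median log2 change of -0.69 at 40 h.

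**Figure D4:**
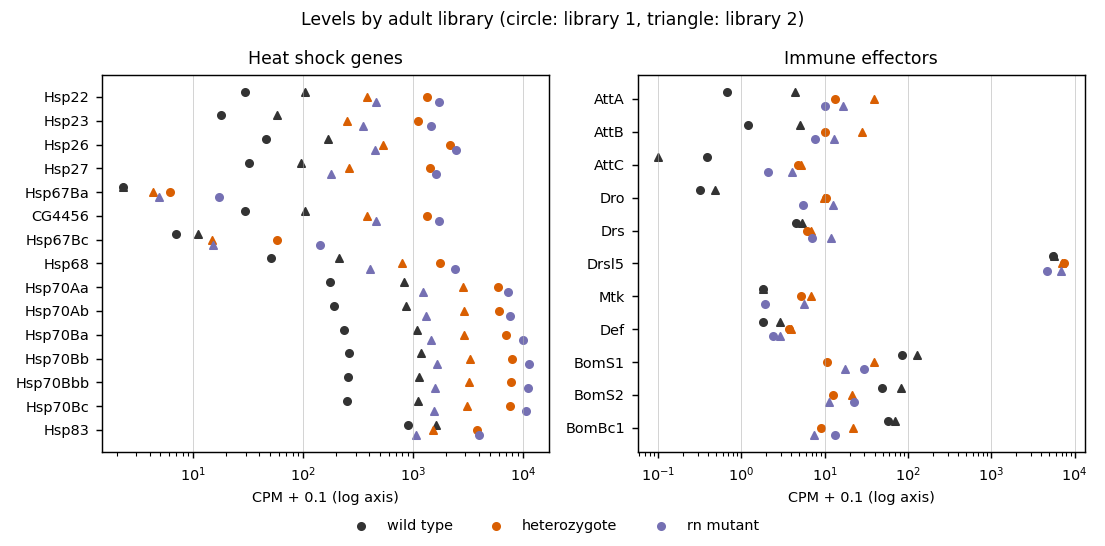
Levels of tested heat shock genes (left) and of 11 immune effectors (right) as CPM + 0.1 on a log axis, with 1 point per adult library. In all heat shock genes shown but Hsp83 the wild type points lie left of the heterozygote points, and library 1 (circle) lies right of library 2 (triangle) in heterozygote and mutant; the attacin points lie higher and the Bomanin points lower in the heterozygote than in wild type, with AttA, BomS1, BomS2 and BomBc1 called in the list.

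Single genes for mechanosensory, neuropeptide and receptor proteins also passed. nompA, which encodes the cap protein that ties mechanosensory dendrites to the cuticle, had 3.05 and 5.75 CPM in wild type, 19.1 and 24.7 in the heterozygote and 12.5 and 33.2 in the rn mutant. It rose by 2.32 ± 0.45 (adjusted p = 0.0102), was lost without heterozygote library 2 (0.094) or wild type library 1 (0.209), and was the only call among 17 tested genes of Johnston's organ and cilia (5.88%, against 1.82% of all genes; median -0.10). Pdfr and ITP were named after their values were seen. Pdfr, the receptor of the clock neuropeptide PDF, had 13.3 and 8.70 CPM against 45.9 and 49.1 (2.11 ± 0.49, adjusted p = 0.0354). ITP, the ion transport peptide, had 279 and 289 CPM against 120 and 129 (-1.19 ± 0.27, adjusted p = 0.0321). Both had groups well apart, and both were lost without any 1 library, from 0.184 to 0.438 for Pdfr and from 0.169 to 0.288 for ITP; Pdfr also did not pass with the sum over transcripts. No clock gene of 12 passed, with 10 of 12 negative, a median of -0.28, 5 passing before adjustment and 0 by DESeq2. Of all 10993 genes, 979 passed before adjustment. The fit on the adult libraries alone, which called 11.5% of all genes, called 1 clock gene higher and 4 lower. vri and tim, which cycle over the day, were at 127 and 184 against 58.1 and 67.9 CPM (-1.31 ± 0.42, adjusted p = 0.175) and at 153 and 227 against 89.4 and 93.6 CPM (-1.05 ± 0.40, adjusted p = 0.345). No pickpocket channel gene (16 tested of 28, median 0.17) and no gustatory receptor gene (23 of 51, median 0.43) passed. Before adjustment 6 and 2 did, and DESeq2 called 1 in each list. The fit on the adult libraries alone called 2 pickpocket genes higher and 2 lower, and 4 gustatory receptor genes higher and 2 lower.

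Among markers of other tissues and general transcripts 1 gene passed. Muscle genes (16 tested, median -0.01) summed to 551 and 292 CPM in wild type and 439 and 427 in the heterozygote, and fat body genes (10 tested, median 0.11) to 277 and 231 against 422 and 327; none passed in either list, and before adjustment 0 and 2 did. In the rn mutant, library 1 stood apart, with summed levels of 1346 CPM against 430 in library 2 for muscle genes. The sums were 1088 against 282 for fat body genes and 946 against 331 for sex-biased genes. The fat body and sex-biased lists share the genes Yp1, Yp2 and Yp3, so their sums are not separate observations. Eye genes, 13 tested of 17, had a median of 1.98 with all 13 positive and none called (2 before adjustment). Their sums were 99.7 and 74.5 CPM in wild type and 79.6 and 269 in the heterozygote, and ninaE, the main rhodopsin, was at 11.1 and 0.776 against 0.833 and 74.0 CPM, so heterozygote library 2 alone stood apart. Of 12 hemocyte genes 1 passed (8.33%, against 1.82% of all genes): Ppn, which encodes the matrix protein papilin, fell from 218 and 259 to 111 and 119 CPM (-1.05 ± 0.21, adjusted p = 0.0127). It held only without wild type library 1 (0.047), with 0.171, 0.111 and 0.166 without heterozygote library 1, heterozygote library 2 and wild type library 2. The hemocyte list had a median of -0.43, with 3 positive and 9 negative. Its sums were 785 and 686 CPM in wild type and 507 and 534 in the heterozygote. Its markers Hml and NimC1 were at 59.7 and 81.2 against 60.5 and 72.0 CPM and at 1.38 and 2.10 against 7.43 and 7.38 CPM, and neither passed. No ribosomal protein gene of 83 tested (median 0.04), mitochondrially encoded gene of 8 (-0.36) or sex-biased gene of 8 (0.19) passed; 0, 0 and 1 did before adjustment. In the lists of this paragraph without an edgeR call DESeq2 called none either. The fit on the adult libraries alone, which called 11.5% of all genes, called 3 of 10 fat body genes higher and 1 lower. It also called 3 of 8 sex-biased genes and 1 ribosomal protein gene higher, and 1 mitochondrially encoded gene lower. No muscle or eye gene was called in it.

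The share of changed genes on chromosome 3, which carries rn and is the one balanced by TM6, was close to that elsewhere. On chromosome 3, 88 of 4910 genes tested passed (1.79%), and on the X and chromosome 2 it was 112 of 5998 (1.87%). By arm the share was 1.59% on X, 1.68% on 2L, 2.24% on 2R, 1.89% on 3L and 1.71% on 3R, and none of 76 genes on chromosome 4 passed. Among the 40 genes nearest to rn, 20 on each side, 1 passed (2.5%, against 1.82% of all genes). The median was -0.05, with 15 positive and 24 negative. The fit on the adult libraries alone, which called 11.5% of all genes, called 6 of the 40 lower and 0 higher. The gene that passed, CG31248 (3R 7129320 to 7130908), stood at 105 and 114 CPM in wild type, 39.6 and 35.8 in the heterozygote and 84.1 and 64.1 in the rn mutant. It fell by 1.54 ± 0.28 (adjusted p = 0.00624), passed only without wild type library 1 (0.047), and had 0.0677, 0.118 and 0.0758 without heterozygote library 1, heterozygote library 2 and wild type library 2. Of 8 genes that carry TM6-type markers or eye colour, 5 were tested and none passed (2 before adjustment, 1 by DESeq2). The body colour gene e was at 7.85 and 8.23 CPM in wild type and 6.67 and 7.57 in the heterozygote, the antennal regulator ss at 465 and 459 against 466 and 471, and Hn, the phenylalanine hydroxylase gene, at 98.0 and 76.7 against 54.9 and 35.4 (-0.95 ± 0.44, adjusted p = 0.525). The eye colour gene w had no counts in wild type and 1.39 and 1.51 CPM in the heterozygote, at least 12.9-fold higher over a floor of 3 counts, and did not pass (adjusted p = 0.12).

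Some called genes lie close together on a chromosome. Linking called genes with gaps of at most 20 kb put 59 of the 200 into 21 runs, 9 of them with at least 3 genes, and in 19 runs every gene moved the same way. The same count was not made for other genes, so it is a description only. The run at 3L 21344033 to 21361229 held 4 genes that fell, CG32436, CG12971, CG32437 and CG32440. CG32440 stood at 3.20 and 2.95 CPM in wild type and had no counts in the heterozygote or the rn mutant, at least 31.1-fold lower over the floor (adjusted p = 0.00957). CG12971 had 4.73 and 3.34 CPM against 0 and 0.126, a ratio of 61.4 (16.6 to 513; adjusted p = 0.0118), and CG32436 had 8.14 and 7.92 against 0.972 and 1.26 (-2.83 ± 0.66, adjusted p = 0.0347). All 3 were lost without any 1 library, from 0.0602 to 0.117, 0.0546 to 0.171 and 0.166 to 0.347, whereas CG32437 was not; CG32436 also did not pass with the sum over transcripts. The run at 3R 15135138 to 15141715 held 3 genes that rose, CG6912, CG3984 and CG3987, the last from 0.582 and 0.776 to 9.30 and 8.07 CPM (3.66 ± 0.47, adjusted p = 0.000274). At 2L 11814156 to 11937501 a run of 5 genes that rose ended in Or33b and included the maltase genes Mal-B1 and Mal-B2. Mal-B1 had 3.78 and 3.26 CPM against 25.7 and 42.3 (3.27 ± 0.46, adjusted p = 0.00235; 0.0604 without wild type library 2), and Mal-B2 had 6.40 and 7.30 against 32.5 and 32.5 (2.24 ± 0.46, adjusted p = 0.0168; from 0.111 to 0.232 without any 1 library). Genes that overlap or are copies of each other, as several of these are, share reads.

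In some changed genes the rn mutant libraries lay nearer to wild type than to the heterozygote. These were named after their values were seen, and the mutant was not tested against either genotype here. mus304, the fly ATRIP gene of the DNA damage checkpoint (FBgn0002901, 3L 18109814 to 18112847), stood at 4.80 and 4.35 CPM in wild type, 28.1 and 25.7 in the heterozygote and 5.52 and 7.40 in the rn mutant. Its rise of 2.55 ± 0.31 (adjusted p = 0.000164) held with any 1 library left out. PolQ, DNA polymerase theta of end-joining repair, had 12.9 and 13.7 CPM in wild type, 34.8 and 34.1 in the heterozygote and 14.7 and 20.4 in the rn mutant (1.38 ± 0.21, adjusted p = 0.00134). pst, or pastrel, a gene for resistance to picorna-like viruses, had 253 and 246 CPM, 112 and 124 and 245 and 245 in the same order, and fell by 1.08 ± 0.16 (adjusted p = 0.00134). CG3857 had 209 and 250 CPM in wild type, 1644 and 1485 in the heterozygote and 435 and 640 in the rn mutant (2.77 ± 0.26, adjusted p = 9.62e-06). PolQ, pst and CG3857 also held with any 1 library left out.

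A weaker set had the same order of genotypes. Gycbeta100B, a subunit of soluble guanylate cyclase, had 55.9 and 57.8 CPM in wild type, 156 and 146 in the heterozygote and 57.7 and 60.6 in the rn mutant (1.41 ± 0.28, adjusted p = 0.0131). CG31463 and CG31464, neighbours on 3R, had no counts in wild type or the rn mutant. In the heterozygote CG31463 had 5.55 and 3.53 CPM, at least 39.9-fold higher over the floor (adjusted p = 0.0424), and CG31464 5.28 and 4.67 CPM, at least 44-fold higher (adjusted p = 0.0354). All 3 were lost without any 1 library, from 0.0857 to 0.184 for Gycbeta100B, 0.149 to 0.346 for CG31463 and 0.159 to 0.297 for CG31464. Neither CG31463 nor CG31464 passed with the sum over transcripts or DESeq2. phr, the photolyase that repairs ultraviolet damage, had the other order: 5.89 and 4.97 CPM in wild type, 25.9 and 23.0 in the heterozygote and 29.0 and 29.3 in the rn mutant (2.17 ± 0.28, adjusted p = 0.000381).

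Part of the adult difference was already present earlier in development, in other libraries of the same genotypes. At 40 h after pupation 112 genes differed between heterozygote and wild type (1.02%), at 8 h 433 (3.94%) and in the larval disc 204 (1.86%). Of the 200 adult genes, 50 were called at 40 h, which is 25% of the adult list and 44.6% of the 40 h list, and 48 of the 50 had the same direction. At 8 h 46 were shared (23% of the adult and 10.6% of the 8 h list), 42 in the same direction, and in the larva 44 (22% and 21.6%), again 42 in the same direction. Called or not, 151 of the 200 had the same sign at 40 h (75.5%, against 56.4% of all genes), 143 at 8 h (71.5%, against 53.4%) and 135 in the larva (67.5%, against 49.5%). At all 4 stages 20 genes were called, each in 1 direction throughout. Spn47C had log2 changes of 4.82 in the larva, 5.88 at 8 h, 5.30 at 40 h and 4.62 in the adult, pst of -1.71, -1.77, -1.39 and -1.08, and PolQ of 1.28, 0.85, 1.36 and 1.38. Also among the 20 were ea, a serine protease known from embryonic patterning (2.84, 4.40, 1.93 and 4.07), Nlg2, a neuroligin of synapses (4.2, 2.67, 2.82 and 1.95), and sordd2 (2.90, 2.06, 2.28 and 2.46). The methuselah-like receptor genes mthl3 and mthl4, neighbours that may share reads, were in it with adult changes of 1.62 and 1.43, each lost in the adult without wild type library 1 (0.0886 and 0.0841). CG32437 and CG12971 of the 3L run fell at all stages, as did tut.

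**Figure D5:**
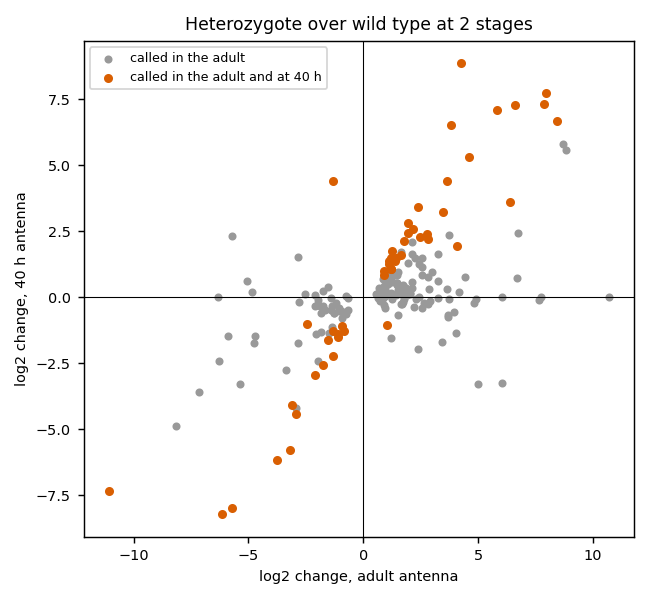
Fitted log2 change of heterozygote over wild type at 40 h (vertical) against that in the adult (horizontal) for the 200 genes called in the adult. Orange marks the 50 also called at 40 h, 48 of which lie in the quadrants of equal sign; many of the others lie near 0 on the 40 h axis.

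For some genes the adult change differed from the 40 h change, and this difference was tested itself. In that test 24 of 10993 genes passed (0.218%), 17 with a more positive change in the adult, and 578 passed before adjustment. The count was 15 without adult heterozygote library 1, 14 and 13 without adult wild type library 1 and 2, 15 and 37 without 40 h heterozygote library 1 and 2, and 9 and 11 without 40 h wild type library 1 and 2. CG7900 had means of 2.23 CPM (wild type) and 1.90 CPM (heterozygote) at 40 h, so its adult rise exceeded the 40 h change by 5.05 on the log2 scale (adjusted p = 0.000149). The rise of CG7900 was not particular to the adult. Its log2 change was 5.61 in the larval disc (adjusted p = 2.43e-07) and 4.02 at 8 h (adjusted p = 9.11e-06). Obp99c had means of 85.7 and 72.6 CPM at 40 h, higher than in the adult in both genotypes, and its change was greater in the adult by 3.07 (adjusted p = 0.0217). Cpr92A had means of 47.2 and 54.5 CPM at 40 h, and its change was lower in the adult by a log2 difference of -5.03 (adjusted p = 0.0342). CG14275 fell in the adult, from 119 and 101 to 49.3 and 38.8 CPM (-1.33 ± 0.28, adjusted p = 0.0167; lost without any 1 library, from 0.0758 to 0.273). At 40 h it rose, from a mean of 0.973 to 20.9 CPM (4.40, adjusted p = 6.59e-06), a difference between the stages of -5.73 (adjusted p = 1.5e-05). CG5835 went the other way, from 28.8 and 25.9 to 53.2 and 58.6 CPM in the adult (1.03 ± 0.19, adjusted p = 0.00624) and from a mean of 90.9 to 44.2 CPM at 40 h (-1.04, adjusted p = 0.00778). Its adult call was lost without heterozygote library 2 (0.0768), wild type library 1 (0.0597) or wild type library 2 (0.116).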

How the data were processed

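The deposited unnormalized table holds counts per FlyBase transcript for 24 libraries, and the authors' deposited normalized table holds a signal equal to those counts times a constant per library (largest relative deviation 9.9e-15), so the counts were used throughout. Per the labels' protocols, libraries were stranded Illumina mRNA libraries of RNeasy-extracted RNA. CASAVA 1.8, BWA 0.7.12 and DESeq2 are named in the submitters' processing notes. The build, the counting program, its strand setting and how it treated shared reads are not given in the sources used. Of 29872 transcripts, 29393 with 98.69% of counts were matched by identifier to 13409 genes of the BDGP6 annotation; the other 479 were left out. Each gene was represented by the transcript with most counts, 45.5% of matched counts in all. Of counts from 1 to 9, 76.98% were even, as if mates were counted separately, so counting intervals (exact, 95%) and floors are too narrow and cover counting error only.

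The test was the quasi-likelihood F test of edgeR 4.0.16 (R 4.3.3) after TMM scaling and filterByExpr at a minimum count of 10, fitted over 12 groups of 2 libraries, with 12 residual degrees of freedom and Benjamini-Hochberg adjustment. The script was tested on simulated counts. Alternatives were size factors by relative log expression, no filter, the sum over transcripts, fits on the adult libraries, DESeq2 1.42.0, a replicate block and leaving out each library. The lists were matched by symbol. The genes named were rn, the 12 largest rises and the 12 largest falls among called genes with at least 5 CPM in the higher group and no overlap of the groups, up to 4 called members of each of 34 lists by adjusted p, and the 5 smallest p-values for the stage difference. Every other gene was named after its values were seen. The comparison, lists and rules were chosen with earlier results of these data known. Libraries of a genotype differed by more than counting noise, with a chi-square per degree of freedom of 17.1 in wild type and 29.1 in the heterozygote, and were counted as 2 samples.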

Additional observations from a re-analysis of the deposited data

Results flagged for a closer look

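The difference between the adult and the 40 h effect of the heterozygote was tested as an interaction in the same fit. It was passed by 24 of 10993 genes (0.218%), and 11 of the genes named were among them. The genes named were picked in part by the 5 smallest p-values of this test and by large adult changes. The 11 are therefore a description only. In 7 the adult change was the more positive, with log2 differences of 4.97 for CG11893, 5.05 for CG7900, 3.07 for Obp99c, 7.77 for Obp83ef, 2.19 for Cyp6a23, 2.76 for Cyp4e3 and 2.07 for CG5835. In the other 4 it was the more negative, at -5.67 for CG34456, -5.03 for Cpr92A, -5.73 for CG14275 and -2.84 for CG17549. CG17549 did not pass in the adult (log2 change -0.57, adjusted p = 0.384) and rose at 40 h (2.27, adjusted p = 0.00015). Cyp4e3 rose in the adult, while its 40 h value of -1.56 did not pass (adjusted p = 0.0581). Obp83ef had no counts in adult wild type, so its fitted difference is no bound. At 40 h it was at a mean of 14.5 CPM in wild type and 13.4 CPM in the heterozygote.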

How the results depend on the processing

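The count of 200 (134 higher, 66 lower) became 1149 (644 and 505) in the fit on the adult heterozygote and wild type libraries, 830 (470 and 360) with the adult mutant added, and 375 (244 and 131) with DESeq2. These hold 200, 195 and 195 of the 200. It was 201 with relative log expression, 195 without a filter and 189 with the sum over transcripts. Leaving out 1 library gave 73 to 97 genes, 50 to 78 higher and 17 to 23 lower. The percent called on chromosome 3 and on X and chromosome 2 was 11.5 and 11.6 in the adult fit, 8.06 and 8.35 with the mutant added and 3.42 and 3.58 with DESeq2, and 0.754 to 1.01 and 0.567 to 0.746 with 1 library left out. The 24 genes of the stage difference became 119 with DESeq2 and 9 to 37 with 1 library left out, the 40 h libraries included, an alternative added after seeing the data. The fit on 4 adult libraries estimates the spread from fewer and tighter libraries (10.8% against 22.8%); for the fit with the mutant added and for DESeq2 the cause was not tested. Of the named genes, ninaE reversed: its log2 change ran from -2.81 to 5.57 with 1 library left out. Of list medians under the alternatives, 28 moved by more than the spread between replicates and 346 did not. Deviations of library 1 from the group mean correlated at -0.05 between adult wild type and heterozygote. This is 1 value, without the rn mutant, and cannot show whether the numbers pair the samples. With a replicate block 145 genes passed, 39 of them lower, and 140 of the 200 were among them. Calls lost with the block include those of CG12158, CG13558, CG18234, CG18577, CG9010, tut, CG32436, CG12971, CG32440, BomS1, BomS2, BomBc1, Hsp22, CG4456, Hsp26, Gycbeta100B, CG31463 and CG31464.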
